A study of Mus musculus with 4 samples.

Results

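Macrophages take on different activation states, and the genes measured here are the transcripts most often used to tell these states apart. The set holds 10 genes, taken by symbol from the 24421 genes of the count tables, and Nos2, Mrc1, Cd163, Chil3, Retnla, Mgl2, Il10, Trem2 and Spp1 are described one by one. All 10 were listed, and 9 passed the filter on low counts. Retnla did not. Macrophages exposed to microbial products and interferon-gamma make nitric oxide from arginine with the enzyme encoded by Nos2. Macrophages exposed to interleukin-4 or interleukin-13 instead activate STAT6 and express Mrc1, Chil3, Retnla and Mgl2, and Cd163 and Il10 belong to a related anti-inflammatory state. Trem2 and Spp1 mark a lipid-associated state that is described in tumors and in fatty tissue.

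Bulk RNA-seq was performed on J558 allografts from female BALB/c mice at day 6, with 2 Vehicle libraries and 2 TAK-931 libraries. J558 is a plasmacytoma line that was injected under the skin of the flank, so each tumor held J558 cells together with the blood-derived and stromal cells of an immunocompetent host. TAK-931, an inhibitor of the CDC7 kinase that starts DNA replication, was given by mouth once daily at 60 mg/kg, and Vehicle mice received 0.5% methylcellulose. Allografts Vehicle-1 and TAK-931-1 were also taken by the study, as representatives, for histology and single-cell RNA-seq. The study ties these names to tumors of individual mice. For Vehicle-2 and TAK-931-2 the sources used here give only the number, so p-values measure the spread between these libraries.

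Library depth ranged from 16487902 to 19589339 counts. TAK-931-1 stood apart from the other 3 libraries, with a Pearson's r of 0.7905 to 0.865 across the 13669 tested genes, against 0.939 to 0.977 among the rest. These correlations are across genes, which are not replicates. The label B lymphocyte was met by the plasma cell genes Jchain, Sdc1, Xbp1 and Trap1a, whose levels were at least 241.5 CPM in every library. Prdm1 and Tnfrsf17, also plasma cell genes, were lower, at 89.6 and 17.9 CPM in TAK-931-1, their lowest library. Of 5 genes of mature B cells, 2 passed the filter on low counts. CPM are counts per 1000000 of the TMM-scaled library size. Levels between genes are compared as RPKM, which divides CPM by the exon length in kilobases. In whole tumors, fewer cells of a type and less RNA per cell cannot be told apart.

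By edgeR's quasi-likelihood test, 0 of the 9 tested members passed an adjusted p of 0.05, and 0% of all tested genes did. At an unadjusted p under 0.05, 4 members were higher in TAK-931-treated allografts (Chil3, Nos2, Spp1 and Mrc1) and 0 were lower. Chil3 passed the filter on low counts only through the TAK-931 libraries, so it had to differ in the counts given here. Over all tested genes, 11.6% were higher and 6.55% lower at this level. Both TAK-931 libraries lay above both Vehicle libraries for 6 of the 9 members, compared with 30% of all tested genes. Both lay below for 2 members, compared with 32.7%. The highest level of the 4 libraries was in TAK-931-1 for 7 of the 9, compared with 41.2% of all tested genes. The median log2 fold change was 1.76 over the 9 members and 0.02 over all tested genes.

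**Figure D1:**
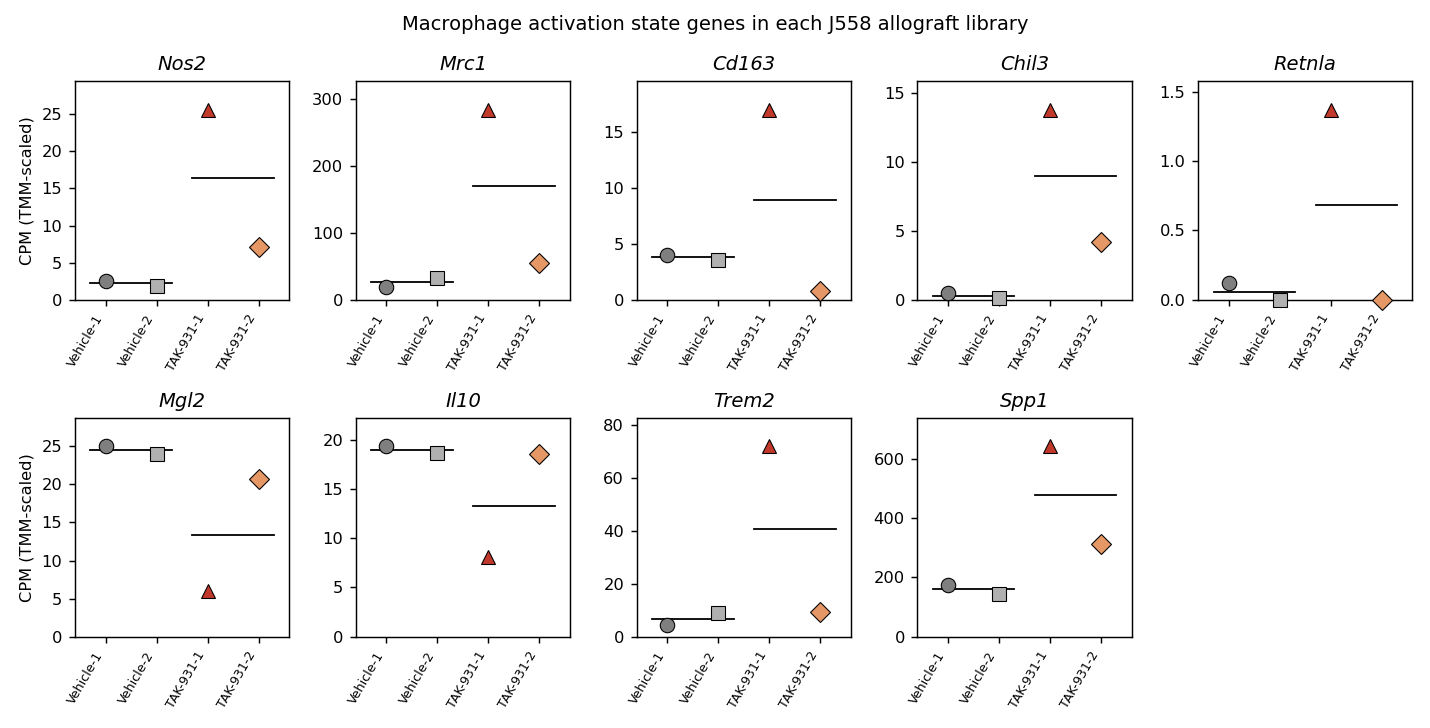
CPM of 9 macrophage activation state genes (y axis, linear from 0, 1 panel per gene) in the 4 libraries (x axis), with horizontal lines at the means of the 2 libraries of each group. TAK-931-1 is the highest library for 7 genes, Mgl2 and Il10 are lowest in it, and Cd163 is highest in TAK-931-1 and lowest in TAK-931-2.

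Nos2 encodes inducible nitric oxide synthase and lies on chromosome 11 (78920859 to 78960124 in mm10, plus strand). It had 2.49 and 1.92 CPM in Vehicle-1 and Vehicle-2 and 25.6 CPM in TAK-931-1 against 7.12 CPM in TAK-931-2. The groups did not overlap, and both TAK-931 libraries were well above the narrow Vehicle range. The mean was 2.20 ± 0.405 CPM in Vehicle and 16.4 ± 13.1 CPM in TAK-931 (SD, n = 2), a log2 fold change of 2.89 (SE 0.79, edgeR adjusted p = 0.275). TAK-931-1 was 11.6-fold and TAK-931-2 3.23-fold the Vehicle mean, so the direction was shared and the size was not. The log2 fold change was 1.68 without TAK-931-1 and 3.51 without TAK-931-2.

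Mrc1 encodes the mannose receptor CD206 and lies on chromosome 2 (14229414 to 14332023, plus strand). It had 19.7 and 33.0 CPM in the Vehicle libraries and 284.7 CPM in TAK-931-1 against 55.3 CPM in TAK-931-2. The groups did not overlap, and TAK-931-1 was 5.15-fold TAK-931-2. For Mrc1 the log2 fold change was 2.69 (SE 0.88, edgeR adjusted p = 0.275) and became 1.07 without TAK-931-1. Mrc1 and Nos2 were thus both above Vehicle in both TAK-931 libraries. Their ratio per exon length was 5.95 and 12.9 in the Vehicle libraries and 8.34 in TAK-931-1 compared with 5.83 in TAK-931-2, and the groups overlapped.

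Chil3 encodes the secreted chitinase-like protein Ym1 and lies on chromosome 3 (106147554 to 106167564, minus strand). It had 8 and 2 counts in Vehicle-1 and Vehicle-2 and 262 in TAK-931-1 versus 72 in TAK-931-2. In CPM these were 0.474, 0.120, 13.8 and 4.20. The groups did not overlap, and the 95% exact Poisson interval of TAK-931-2 (3.29 to 5.29 CPM) lay above that of Vehicle-1 (0.205 to 0.935 CPM). These intervals cover counting error only. Odd numbers made up 17.9% to 23.9% of counts from 1 to 20, and if both mates of a pair were counted the intervals are too narrow. The log2 fold change was 4.89 (SE 1.09, edgeR adjusted p = 0.275), and it was 3.78 without TAK-931-1 and 6.14 without Vehicle-1. With 8 and 2 Vehicle counts its size is poorly known and depends on the prior count of the fit. Chil4, a close paralog whose reads could be confused with those of Chil3, had 0 counts in all 4 libraries.

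Retnla encodes the secreted protein FIZZ1 and lies on chromosome 16 (48842552 to 48844461, plus strand). It had 2 and 0 counts in the Vehicle libraries and 26 in TAK-931-1 against 0 in TAK-931-2. It was thus seen mainly in TAK-931-1, at 1.37 CPM. A count of 0 allows up to 3 counts, or 0.180 CPM in Vehicle-2 and 0.175 CPM in TAK-931-2, for counting error only and higher if both mates were counted. Retnla was therefore not detectable in those libraries at this depth, although Chil3, another gene of the interleukin-4 response, was at 4.20 CPM in TAK-931-2.

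Because Chil3, Retnla and Mrc1 are read as outputs of the same state but had unlike levels here, the 250 bases upstream of their RefSeq starts (GRCm38.p6) are shown with those of Mgl2, which differed in the opposite direction. They lie at chr3:106167565-106167814 (Chil3, minus strand), chr16:48842359-48842608 (Retnla, plus strand), chr2:14229164-14229413 (Mrc1, plus strand) and chr11:70130107-70130356 (Mgl2, plus strand). The RefSeq start of Retnla lies inside the gene's span in the count tables. Capitals mark the letters of the motifs searched, on either strand.
Chil3: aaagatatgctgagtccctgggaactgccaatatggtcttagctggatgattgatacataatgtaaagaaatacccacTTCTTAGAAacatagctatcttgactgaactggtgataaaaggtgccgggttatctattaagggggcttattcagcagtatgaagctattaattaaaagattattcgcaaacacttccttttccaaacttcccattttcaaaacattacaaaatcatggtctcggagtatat
Retnla: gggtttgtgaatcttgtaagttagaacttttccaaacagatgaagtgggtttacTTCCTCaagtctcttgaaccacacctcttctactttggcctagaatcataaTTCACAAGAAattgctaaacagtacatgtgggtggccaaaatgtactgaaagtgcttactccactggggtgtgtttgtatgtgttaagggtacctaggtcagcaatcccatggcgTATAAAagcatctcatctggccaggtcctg
Mrc1: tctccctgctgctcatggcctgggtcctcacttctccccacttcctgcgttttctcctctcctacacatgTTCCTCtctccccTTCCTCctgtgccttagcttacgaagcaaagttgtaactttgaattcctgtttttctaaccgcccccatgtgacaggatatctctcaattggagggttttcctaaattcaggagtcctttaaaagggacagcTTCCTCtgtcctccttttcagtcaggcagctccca
Mgl2: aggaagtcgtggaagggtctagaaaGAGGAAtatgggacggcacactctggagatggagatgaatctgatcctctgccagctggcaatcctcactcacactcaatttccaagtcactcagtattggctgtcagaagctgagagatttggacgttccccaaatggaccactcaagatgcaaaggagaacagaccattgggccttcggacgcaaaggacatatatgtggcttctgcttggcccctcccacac

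The motifs were the STAT6 motif TTCNNNNGAA, the interferon-gamma activated site TTCNNNGAA, the AP-1 motif TGANTCA, the PU.1 core GAGGAA and the TATA box TATAAA. The first 2 differ only in their spacing. Of 32536 upstream windows of this length, 5.89% held the STAT6 letters, 7.04% the interferon-gamma letters, 6.73% the AP-1 letters, 23.4% the PU.1 core and 12.3% the TATA box. The STAT6 letters were found in Retnla, from 145 to 136 bases before the start, and in none of the other 6 members with a window. The interferon-gamma letters were found only in Chil3 among those 7 members, from 172 to 164 bases before the start. The PU.1 core, named for the factor that drives macrophage genes, was found 3 times in Mrc1 and once each in Retnla, Mgl2, Trem2 and Spp1. The TATA box letters were found in Retnla, from 30 to 25 bases before the start. In Spp1 they lay farther off, from 211 to 206 bases before the first of its starts. The AP-1 letters were found in Trem2. Such matches describe letters and not bound sites.

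Cd163 encodes the hemoglobin scavenger receptor and lies on chromosome 6 (124304651 to 124330527, plus strand). It had 4.03 and 3.596 CPM in the Vehicle libraries and 17.0 CPM in TAK-931-1 compared with 0.817 CPM in TAK-931-2. The TAK-931 libraries lay on opposite sides of the Vehicle libraries, at 4.46-fold and 0.214-fold their mean. The 95% Poisson interval in TAK-931-2 (0.447 to 1.37 CPM) was below both Vehicle values. The log2 fold change of 1.22 (SE 1.37, edgeR adjusted p = 0.603) became −2.22 without TAK-931-1. Skeletal muscle genes also lay above Vehicle in TAK-931-1 and below it in TAK-931-2, with a summed level of 81.6 and 85.8 CPM in the Vehicle libraries and 556.2 CPM in TAK-931-1 versus 11.4 CPM in TAK-931-2, and all 5 were highest in TAK-931-1. Their part in the Cd163 values was not tested.

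Mgl2 encodes a galactose-binding lectin, CD301b, and lies on chromosome 11 (70130357 to 70137542, plus strand). It had 25.02 and 23.98 CPM in the Vehicle libraries and 5.95 CPM in TAK-931-1 against 20.8 CPM in TAK-931-2. Both TAK-931 libraries were lower than both Vehicle libraries, but TAK-931-2 was close, at 0.848-fold the Vehicle mean. For Mgl2 the log2 fold change was −0.88 (SE 0.66, edgeR adjusted p = 0.454), and it was −0.24 without TAK-931-1 and −2.06 without TAK-931-2. Clec10a, its neighboring paralog and the gene for CD301a, had 3.38 and 4.20 CPM in Vehicle and 28.2 CPM in TAK-931-1 compared with 4.32 CPM in TAK-931-2. Its direction was thus opposite in TAK-931-1, whereas TAK-931-2, with 74 counts, could not be told from Vehicle-2, with 70. How reads shared by such paralogs were assigned is not given in the sources used here, so the split between Mgl2 and Clec10a is uncertain.

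Il10 encodes the anti-inflammatory cytokine interleukin-10 and lies on chromosome 1 (131019845 to 131024970, plus strand). It had 19.3 and 18.6 CPM in the Vehicle libraries and 8.11 CPM in TAK-931-1 versus 18.5 CPM in TAK-931-2. TAK-931-2 was within the counting error of both Vehicle libraries, and only TAK-931-1 was clearly lower. For Il10 the log2 fold change was −0.51 (SE 0.50, edgeR adjusted p = 0.550), and it was −0.04 without TAK-931-1 and −1.25 without TAK-931-2. With scaling by library size only, Il10 in TAK-931-2 no longer lay below both Vehicle libraries, and Mgl2 was the 1 member left with both TAK-931 libraries below.

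Apart from Spp1, Mgl2 and Il10 had the highest levels of the members in Vehicle. They had means of 15.8 and 14.5 RPKM in Vehicle, above Nos2, Mrc1, Cd163, Chil3, Retnla and Trem2, which ranged from 0.0992 to 5.81 RPKM. Plasmacytoma genes shared the low level in TAK-931-1. The summed level of 6 such genes was 8181 and 8712 CPM in the Vehicle libraries and 4218 CPM in TAK-931-1 against 11200 CPM in TAK-931-2, and all 6 were lowest in TAK-931-1. In TAK-931-2, 4 of the 6 were above both Vehicle libraries and 2 below, beside 42.3% and 44.4% of all tested genes, and Jchain alone made up 8124 CPM of the sum. By distance of the mean-centered log2 CPM over the 4 libraries, the 3 genes nearest to Mgl2 among 11781 were 2610305D13Rik, Braf and Pou2af1 (0.09 each), and the nearest to Il10 was Prss16 (0.06). Mgl2 and Il10 were each other's nearest member, at 0.66. For Chil3 the nearest were Aoah (0.44), Irg1 (0.50) and Ccl2 (0.53), and for Cd163 Cd300lg (0.18), Eln (0.32) and Des (0.49). Mrc1 and Trem2 were nearest to each other among the members, at 0.54. These distances rest on 4 libraries and carry no test, and the part of J558 cells in Mgl2 and Il10 was not tested.

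Trem2 encodes a lipid-sensing receptor of macrophages and lies on chromosome 17 (48346401 to 48352276, plus strand). It had 4.21 and 9.11 CPM in the Vehicle libraries and 72.1 CPM in TAK-931-1 compared with 9.33 CPM in TAK-931-2. TAK-931-1 was far above the rest, whereas TAK-931-2, with 160 counts, could not be told from Vehicle-2, with 152. The log2 fold change of 2.61 (SE 1.10, edgeR adjusted p = 0.286) was 0.48 without TAK-931-1.

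Spp1 encodes osteopontin, a secreted phosphoprotein that binds integrins and CD44, and lies on chromosome 5 (104435111 to 104441053, plus strand). It had 175.8 and 144.8 CPM in the Vehicle libraries and 642.5 CPM in TAK-931-1 versus 312.5 CPM in TAK-931-2. The groups did not overlap, and the Vehicle libraries were close. Its log2 fold change was 1.57 (SE 0.43, edgeR adjusted p = 0.275), and it was 0.96 without TAK-931-1 and 1.98 without TAK-931-2. Spp1 had the highest level of the 10 genes in every library, from 87.3 to 387.5 RPKM. Osteopontin is also made by stromal cells, and the fibroblast genes, whose summed level was 1883 and 2138 CPM in Vehicle, reached 14790 CPM in TAK-931-1 against 5101 CPM in TAK-931-2. Their part in the Spp1 values was not tested.

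**Figure D2:**
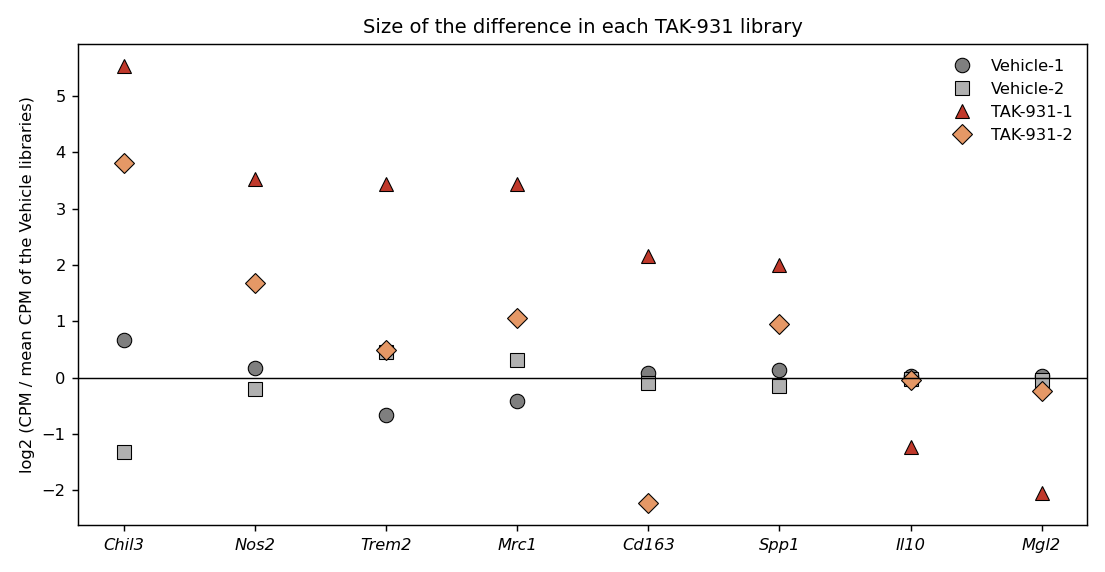
Log2 of the ratio of each library's CPM to the mean of the Vehicle libraries (y axis) for 8 of the 9 tested members (x axis), ordered by TAK-931-1. Nos2 was 11.6-fold in TAK-931-1 compared with 3.23-fold in TAK-931-2, the points of Chil3 rest on 8 and 2 Vehicle counts, Trem2 in TAK-931-2 sits on Vehicle-2, and Cd163 lies on both sides of 0.

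TAK-931-1 and TAK-931-2 differed by a larger fold than the Vehicle libraries did for 7 of the 9 tested members, with Chil3 among the exceptions. With TAK-931-1 left out, 3 members were called higher (Nos2, Chil3 and Spp1) and Cd163 lower by edgeR, where 12.6% and 16.1% of all tested genes were called higher and lower. With TAK-931-2 left out, 6 of the 10 members then tested were called higher (Nos2, Mrc1, Chil3, Trem2, Spp1 and Cd163) and Mgl2 and Il10 lower, where 28.2% and 29.8% of genes were. In these fits the spread came from the Vehicle libraries, and the lone TAK-931 library was assumed to vary as they did. DESeq2 on all 4 libraries called Nos2, Mrc1, Spp1 and Trem2 higher (adjusted p from 0.00401 to 0.0382), where 9.21% of genes were called higher. DESeq2 also called Chil3 higher (adjusted p = 0.000183). Chil3 passed the low-count filter only through the TAK-931 libraries, so it had to differ, here and in the fits with a library left out. With limma-voom 0 members were called.

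Because macrophage lineage genes differed between the tumors, each member was set against the macrophage lineage in the same library. The 14 lineage genes included Adgre1, Csf1r and Cd68, the genes for F4/80, the CSF1 receptor and macrosialin. Adgre1 had 23.5 and 15.9 CPM in the Vehicle libraries and 318.5 CPM in TAK-931-1 versus 52.4 CPM in TAK-931-2. The summed level of the list was 676.3 and 555.0 CPM in Vehicle and 9920 CPM in TAK-931-1 against 1765 CPM in TAK-931-2, and its median log2 fold change was 3.27. In TAK-931-2 alone the median log2 ratio of the list to Vehicle was 1.53, and the log2 ratio of Nos2 there was 1.65.

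Relative to the mean log2 CPM of the lineage genes, Chil3 was higher in both TAK-931 libraries than in both Vehicle libraries, but it passed the low-count filter only through the TAK-931 libraries. Its difference of 1.69 rests on 8 and 2 Vehicle counts and became 2.11 with a prior count of 0.5. It was 2.285 without Vehicle-1, 1.09 without Vehicle-2, 2.11 without TAK-931-1 and 1.26 without TAK-931-2. On this scale 1.61% of all tested genes were higher in this way and 88.2% lower, because the lineage mean itself was 4.64 and 4.51 in Vehicle but 8.54 and 6.00 in TAK-931-1 and TAK-931-2. For Chil3 the values were −5.41 and −6.60 in Vehicle and −4.74 in TAK-931-1 compared with −3.89 in TAK-931-2. Nos2, Mrc1 and Trem2 overlapped between the groups on this scale, and the difference of the group means for Nos2 was −0.13, which became 0.23 without TAK-931-1 and −0.48 without TAK-931-2. Cd163 was lower relative to the lineage genes in both TAK-931 libraries, at −4.44 and −6.10 against −2.59 and −2.62. Per exon length, the ratio of Cd163 to Nos2 was 1.44 and 1.67 in Vehicle and 0.590 in TAK-931-1 versus 0.102 in TAK-931-2, so those groups did not overlap. Mgl2, Il10 and Spp1 were lower relative to the lineage genes as well, as most tested genes were, with Spp1 at 2.82 and 2.67 in the Vehicle libraries but 0.79 in TAK-931-1, and 2.29 in TAK-931-2. These relative values have 2 libraries per group and no test, and an exact permutation test of 2 against 2 cannot go below p = 0.333.

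**Figure D3:**
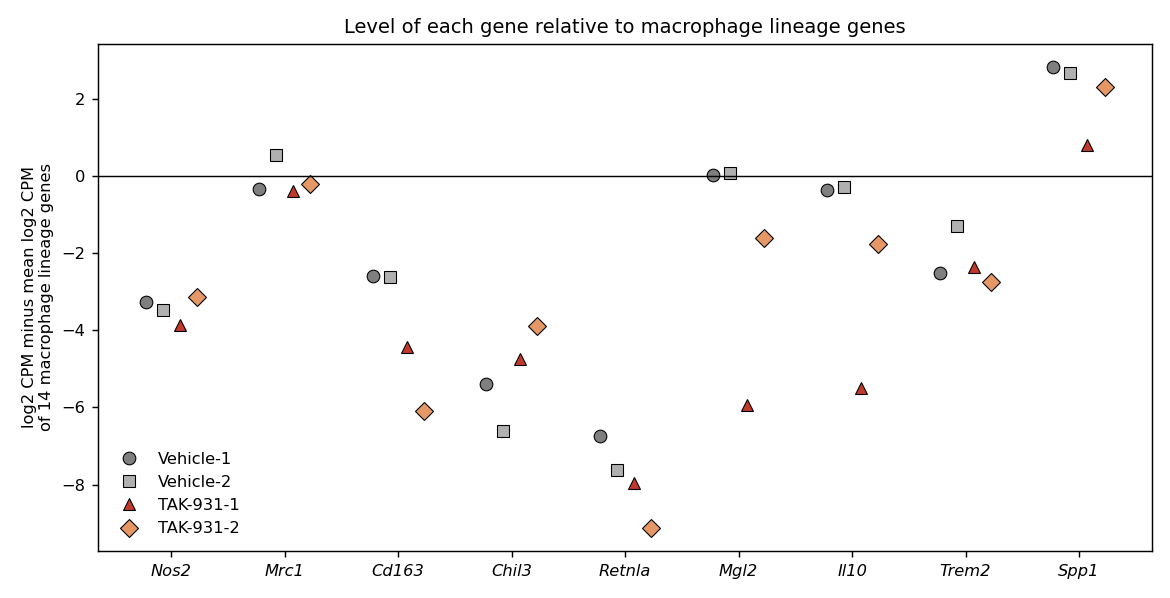
Log2 CPM of the members described minus the mean log2 CPM of 14 macrophage lineage genes (y axis) in the 4 libraries, by gene (x axis, 9 genes). Chil3 is higher in both TAK-931 libraries, Cd163, Mgl2, Il10 and Spp1 are lower, as 88.2% of all tested genes are, and the place of Retnla, with 0 to 26 counts, is set mainly by the prior count of 2.

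Other genes of the same states were then counted from lists. Among 14 tested genes of inflammatory activation, 8 were higher and 1 lower at an unadjusted p under 0.05, beside 11.6% and 6.55% of all tested genes. Both TAK-931 libraries lay above both Vehicle libraries for 12 of the 14, beside 30% of all tested genes. Il12b and Il6 passed the low-count filter only through the TAK-931 libraries and so had to differ, and Il12b is 1 of the 8. The 1 lower gene was Gch1. The median log2 fold change was 2.68, and the median log2 ratio to Vehicle in TAK-931-2 alone was 1.91. Il12b, a subunit of interleukin-12, had 2 and 0 counts in Vehicle and 178 in TAK-931-1 compared with 98 in TAK-931-2. Acod1, listed as Irg1, makes itaconate and had 1.07 and 0.479 CPM in Vehicle and 45.2 CPM in TAK-931-1 versus 10.6 CPM in TAK-931-2. Il1b, the gene for interleukin-1 beta, had 7.65 and 3.78 CPM in Vehicle and then 25.3 and 20.4 CPM, so the TAK-931 libraries were close. Tnf had 0.712 and 0.779 CPM, then 15.4 and 2.98 CPM, in the same order.

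The interleukin-4 arm had its receptor but little of its ligands. Il13 had 0 counts in all 4 libraries, which allows up to 3.69 counts in each, and Il4 had 0 and 1 counts in Vehicle and 0 and 4 in TAK-931. Il4, Il13, Chil4, Il6, Gch1 and Pdcd1lg2 were named after their values were seen. Il4ra, the shared receptor chain, had 46.4 and 59.5 CPM in the Vehicle libraries and 238.1 CPM in TAK-931-1 against 129.0 CPM in TAK-931-2 (log2 fold change 1.79, SE 0.39, edgeR adjusted p = 0.275). Tgm2, a transglutaminase induced by interleukin-4, had a log2 fold change of 2.05 (SE 0.62), and Ccl24, an eosinophil chemokine, had 0.48 (SE 1.26). Of 10 tested genes of alternative activation, 6 were higher and 0 lower at an unadjusted p under 0.05, beside 11.6% and 6.55% of all tested genes. The median log2 fold change of the list was 1.96. Among the 6, Pdcd1lg2 passed the filter only through the TAK-931 libraries. In TAK-931-2 alone the median log2 ratio was 1.19, with 8 of 10 above both Vehicle libraries, compared with 42.3% of all tested genes.

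Of the genes of resident tissue macrophages, all 11 were above both Vehicle libraries in TAK-931-1, and in TAK-931-2 7 were above and 3 below, with median log2 ratios of 2.78 and 0.71. Over all tested genes, 46.1% were above in TAK-931-1, and in TAK-931-2 42.3% were above and 44.4% below. Folr2, a folate receptor, had 6.05 and 6.83 CPM in Vehicle and 44.7 CPM in TAK-931-1 compared with 10.6 CPM in TAK-931-2. Stab1, a scavenger receptor, had 18.3 and 32.1 CPM, then 423.6 and 67.0 CPM. Lyve1, a hyaluronan receptor of perivascular macrophages, had 1.305 and 1.319 CPM, then 4.53 and 0.467 CPM, so like Cd163 it lay on both sides of Vehicle. Cd209f was 0.237 and 2.46 CPM in Vehicle and overlapped between the groups.

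Beside Nos2, other genes of arginine metabolism lay on both sides of Vehicle. At an unadjusted p under 0.05, 1 of 9 tested was higher (Slc7a2) and 1 lower (Odc1), beside 11.6% and 6.55% of all tested genes. The higher gene, Slc7a2, passed the low-count filter only through the TAK-931 libraries. Both TAK-931 libraries lay above both Vehicle libraries for 2 of the 9 and below for 4, beside 30% and 32.7% of all tested genes. The median log2 fold change was −0.11. Slc7a2, an arginine transporter of macrophages, had 8 counts in each Vehicle library and 359 in TAK-931-1 versus 56 in TAK-931-2. Odc1, which makes polyamines from ornithine, had 272.6 and 255.9 CPM in Vehicle and 107.7 CPM in TAK-931-1 against 168.1 CPM in TAK-931-2. Ass1, which regenerates arginine, had 2 counts in Vehicle-1 and 0 elsewhere.

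Genes of the interleukin-10 receptor and its signaling were read beside Il10. Il10ra, the ligand-binding chain of the interleukin-10 receptor, had 13.99 and 9.59 CPM in Vehicle and 318.3 CPM in TAK-931-1 compared with 58.8 CPM in TAK-931-2, while Il10 was at or below its Vehicle level. Socs3, a target of this receptor, had 42.7 and 38.7 CPM in Vehicle and near-equal values of 105.9 and 108.2 CPM in TAK-931-1 and TAK-931-2 (log2 fold change 1.40, SE 0.20, edgeR adjusted p = 0.275). Il10rb and Stat3 had log2 fold changes of 0.37 and 0.44. Of the 7 interleukin-10 pathway genes, 4 were higher and 0 lower at an unadjusted p under 0.05, beside 11.6% and 6.55% of all tested genes.

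Tyrobp, the signaling adaptor of Trem2, had 29.6 and 17.8 CPM in Vehicle and 424.8 CPM in TAK-931-1 versus 58.2 CPM in TAK-931-2. Apoe, a lipid carrier that Trem2 binds, had 280.2 and 375.6 CPM, then 5612 and 879.5 CPM. Tyrobp, Apoe and Trem2 were all highest in TAK-931-1. Lpl, which releases fatty acids, had 18.7 and 13.8 CPM in Vehicle and 420.9 CPM in TAK-931-1 against 21.6 CPM in TAK-931-2, and Gpnmb overlapped between the groups. Of 16 genes of the Trem2 and lipid-associated list, 15 were highest in TAK-931-1, beside 41.2% of all tested genes. At an unadjusted p under 0.05, 5 were higher and 0 lower, beside 11.6% and 6.55% of all tested genes. In TAK-931-2, 11 were above both Vehicle libraries and 5 below, beside 42.3% and 44.4%. The median log2 ratio was 2.93 in TAK-931-1 compared with 0.37 in TAK-931-2.

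Of 7 genes for osteopontin receptors or receptor chains, both TAK-931 libraries lay above both Vehicle libraries for 4 and below for 1. The groups overlapped for 2, and 30% and 32.7% of all tested genes lay above and below in this way. Cd44 was lower in both TAK-931 libraries, with 531.2 and 494.0 CPM in Vehicle and 310.1 CPM in TAK-931-1 versus 429.0 CPM in TAK-931-2. The integrin chains Itgav, Itgb3 and Itgb1 were above both Vehicle libraries in both TAK-931 libraries, with log2 fold changes of 1.07, 1.95 and 1.44. None of these lists had a gene at an adjusted p under 0.05 by edgeR.

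**Figure D4:**
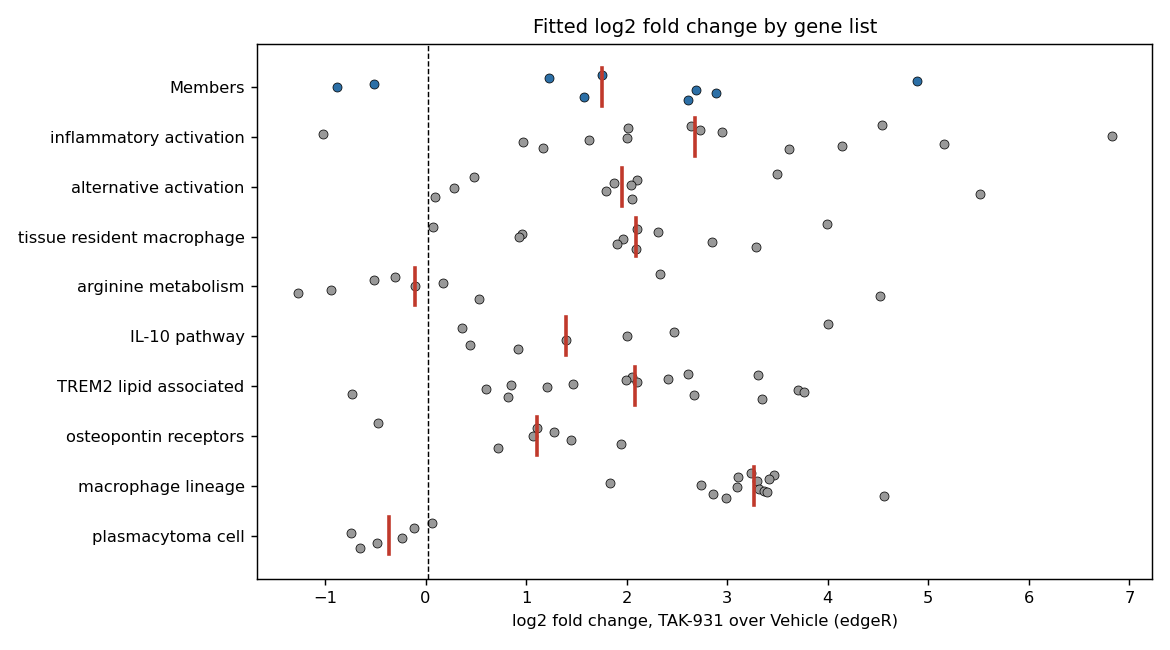
Fitted log2 fold change of TAK-931 over Vehicle (x axis) for each tested gene (points) of the members, the related lists, the macrophage lineage and the plasmacytoma cell (y axis), with red bars at list medians and a dashed line at the median of all tested genes. The lineage list (3.27) lies to the right of the members (1.76), and the arginine (−0.11) and plasmacytoma (−0.36) lists lie near or below 0.

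Genes of other host cells were counted in the same way. All 8 T cell genes and all 5 tested NK cell genes were above both Vehicle libraries in both TAK-931 libraries, beside 30% of all tested genes. T cell genes summed to 21.1 to 31.1 CPM in Vehicle and 90.7 to 1122 CPM in TAK-931, and NK cell genes to 9.47 to 22.1 CPM and 72.2 to 403.4 CPM. Of the NK cell genes, Klrb1c passed the filter only through the TAK-931 libraries, and Klra8 had 0 counts throughout. Dendritic cell genes summed to 11.7 to 13.5 CPM in Vehicle and 16.3 to 50.05 CPM in TAK-931. Of these, 5 of 6 were above both Vehicle libraries in both TAK-931 libraries, beside the same 30%. Neutrophil genes summed to 6.40 to 7.91 CPM in Vehicle and 16.4 to 129.6 CPM in TAK-931, mostly Csf3r, which macrophages also express. S100a8 was at 0 counts in TAK-931-2. Single genes of these marker lists, and those of the plasma cell list above, were named after their values were seen. Mast cell, basophil and eosinophil genes did not exceed 4.14 CPM in sum outside TAK-931-1, where they reached 21.3 CPM, and adipocyte genes did not exceed 1.86 CPM outside that library, where they reached 31.1 CPM. Endothelial genes summed to 229.6 to 247.1 CPM in Vehicle and 235.0 to 796.1 CPM in TAK-931, and B cell genes to 31.5 to 32.4 CPM and 55.7 to 64.5 CPM. The 2 tested B cell genes did not move together. Ms4a1 had 30.54 and 30.15 CPM in Vehicle and 13.28 CPM in TAK-931-1 against 52.74 CPM in TAK-931-2. Cd22 had 1.42 and 1.32 CPM in Vehicle, then 41.7 and 11.4 CPM. Of 7 fibroblast genes, 6 were above both Vehicle libraries in both TAK-931 libraries, beside 30% of all tested genes. The part of these cells in the members' values was not tested.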

How the data were processed

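Total RNA of 4 J558 allografts was sequenced in bulk. The deposited values are raw read counts per gene, made by the authors with STAR 2.6.1c and featureCounts on mm10, per the labels. The featureCounts version and settings, and the strandedness, are not given in the sources used here. Counts from 1 to 20 were mostly even, so both mates may have been counted.

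Groups followed the sample labels. The count tables were joined by gene symbol and position. Genes were filtered with filterByExpr (minimum count 10), which left 13669 of 24421. TMM scaling and the robust quasi-likelihood test of edgeR 4.0.16 in R 4.3.3 were used (two-sided, no term besides treatment), with Benjamini-Hochberg adjustment over all tested genes. DESeq2 1.42.0 and limma 3.58.1 (voom) were alternatives. The fitting script was tested on simulated data. Of the 10 members, 1 is counted in the totals but its values are not reported here. Named were the other 9, the first 4 genes of each related list (1 of them is likewise not reported here), Adgre1, Csf1r, Cd68 and, for tested members, genes among the 3 with the smallest distance of mean-centered log2 CPM (prior count 2). Members, lists and tests were chosen with earlier results of these data known. Upstream sequences came from RefSeq GRCm38.p6, to which all 10 members matched and which held windows for 7.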

Additional observations from a re-analysis of the deposited data

How the results depend on the processing

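By edgeR 0 genes and 0 members were called, and this stayed so with RLE size factors, library size only, a stricter or no low-count filter, no robust estimation, halved counts, limma-voom and an adjusted p of 0.01. DESeq2 called 1411 genes and 5 members. With 1 library left out, 0 to 8424 genes and 0 to 8 members were called (3996 genes and 4 members without TAK-931-1, 8424 and 8 without TAK-931-2, 0 without either Vehicle library). With at least 10 counts in every library, Chil3 was not tested and has no value. The sign of a member's log2 fold change was reversed once, for Cd163, from 1.22 to −2.22 without TAK-931-1, and its range over the left-out libraries was −2.22 to 2.13. With library size only, an alternative chosen after seeing the data, 1 member in place of 2 had both TAK-931 libraries below both Vehicle libraries. The cause of these differences was not tested, except that fits without a library hold fewer samples.

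Replicate numbers were shared between the groups, but nothing in the labels pairs the libraries, and the correlation of same-numbered deviations was 0.0041. With the replicate block, 144 genes (141 higher, 3 lower) and 0 members were called, and Cd163 had a log2 fold change of 0.07. With 2 libraries per group, a BCV of 0.436 and counts of 0 to 26 for Retnla, differences could go uncalled, large ones included.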

Other observations

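Nos1, the neuronal nitric oxide synthase and a paralog of Nos2, was named after its values were seen. It had 38.4 and 35.5 CPM in the Vehicle libraries and 9.06 CPM in TAK-931-1 against 42.8 CPM in TAK-931-2. The groups overlapped, and the log2 fold change was −0.51 (SE 0.76). Like Mgl2 and Il10, it was lowest in TAK-931-1, where the plasmacytoma genes were also lowest, and the part of J558 cells in it was not tested.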
